A study of Mus musculus with 9 samples.

Results

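To describe how pyruvate entry and the tricarboxylic acid (TCA) cycle were expressed after maternal emulsifier consumption, 32 genes were followed in RNA sequencing (RNAseq) of mediobasal hypothalamus (MBH) tissue, which contains the arcuate nucleus. The genes were listed by name for their textbook roles, and the rule itself uses no measured value, although earlier results of these data were known when the list was drawn up. All 32 were among the 14592 named genes of the authors' log2 CPM table (CPM, counts scaled to the size of the library), and all 32 also passed the filter on low counts when estimated counts were summed over all transcripts of a gene (gene sums, 15340 genes tested). Tissue came from wild-type C57Bl/6 male mice at postnatal day 21 (P21). Dams of the control group (CTRL, 4 libraries) received drinking water without supplement, and dams of the emulsifier group (Emul, 5 libraries) received water with 1% carboxymethylcellulose (CMC) and 1% polysorbate 80 (P80), both used as food emulsifiers. Each library stands for a separate litter, and the whole block of tissue was sequenced without sorting of cells.

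Pyruvate made by glycolysis enters mitochondria through the mitochondrial pyruvate carrier and is oxidised to acetyl-CoA by the pyruvate dehydrogenase complex, which pyruvate dehydrogenase kinases switch off by phosphorylation. The TCA cycle then oxidises acetyl-CoA through citrate, isocitrate, 2-oxoglutarate, succinate, fumarate and malate, and hands electrons to the respiratory chain. In brain it also supplies carbon for glutamate and GABA, while pyruvate carboxylase, a largely astrocytic enzyme, refills the cycle.

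Between 28245360 and 46067534 estimated counts per library were assigned, the lowest total being that of CTRL 3. The 13 protein genes of the mitochondrial genome took 5.01% ± 0.46 (SD, n = 4) of the counts on genes in CTRL and 6.22% ± 0.38 (n = 5) in Emul. Markers of the arcuate area were present, as 5 of 6 were tested, although Kiss1 stayed under the filter. Among cell type markers, 3 of 5 neuronal genes (Rbfox3, Tubb3 and Snap25) were higher in Emul at an unadjusted p under 0.05 by limma-voom. Of 4 oligodendrocyte genes, 3 (Mbp, Mag and Mobp) were lower. Of all genes tested, 6.84% were higher and 8.99% lower at that threshold. By edgeR, 2 of the 5 neuronal genes passed. In these 2 lists, 0 genes had an adjusted p under 0.05 by limma-voom or edgeR, while DESeq2 gave 1, a neuronal gene. Of 5 astrocyte genes, Gfap was lower. In the astrocyte list, 0 genes had an adjusted p under 0.05 by limma-voom or edgeR, and DESeq2 gave 1 (2.22% of all genes). By limma-voom, no gene of the lists for oligodendrocyte precursors, microglia, endothelium, tanycytes, other brain areas or blood passed. Summed TPM (an abundance scaled by transcript length and by the total of all transcripts) was taken with mitochondrially encoded transcripts left out, since it is a share of all transcripts. For the oligodendrocyte list it ranged from 9945 to 12463 in CTRL and from 7633 to 10510 in Emul. For the astrocyte list it ranged from 957 to 1032 in CTRL and from 805 to 937 in Emul, without overlap. How often sums of 5 genes separate the groups was not counted. In gene sums, the log2 fold changes of the 5 astrocyte genes ran from −0.40 to −0.006, with a median of −0.057. For the neuronal list the summed TPM ranged from 2793 to 3031 in CTRL and from 2939 to 3163 in Emul, with overlap. With the mitochondrially encoded transcripts included, it ranged from 2442 to 2624 in CTRL and from 2394 to 2591 in Emul. For the 6 markers of the arcuate area, the sum without those transcripts ranged from 371 to 414 in CTRL. In Emul it ranged more widely, from 344 to 599. The part of these differences in the results below was not tested, and fewer cells of a type and less RNA per cell cannot be told apart in whole tissue.

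The 32 genes spanned a wide range of levels. Mean TPM over the 9 libraries was highest for Sdha (308 TPM), Mdh2 (303 TPM) and Glud1 (234 TPM), and lowest for Pdk4 (4.41 TPM) and Suclg2 (14.8 TPM). By role, the genes from citrate to 2-oxoglutarate together averaged 747 TPM, succinate dehydrogenase 711 TPM, the pyruvate dehydrogenase complex 500 TPM and its kinases 132 TPM. The summed TPM of all 32 ranged from 3904 to 4008 in CTRL and from 3661 to 3851 in Emul. Since mitochondrially encoded transcripts held 12.6 to 15.4% of TPM in CTRL and 16.2 to 19.2% in Emul, the sum was also taken without them. It then ranged from 4567 to 4657 in CTRL and from 4533 to 4678 in Emul, and the groups overlapped.

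**Figure D1:**
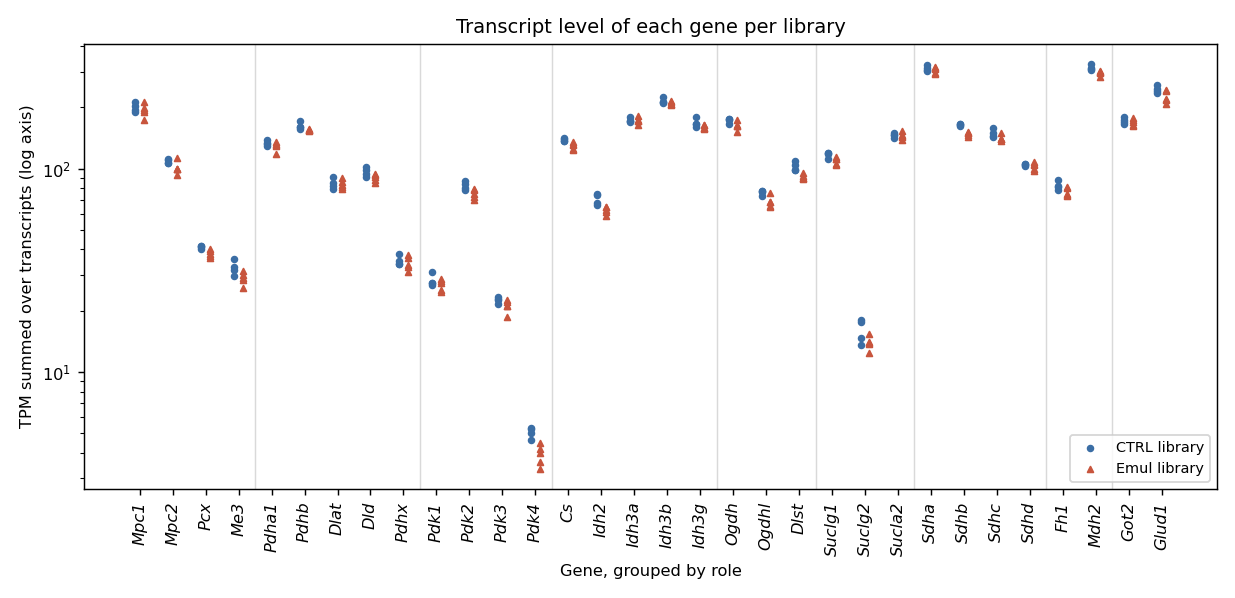
Transcript level (TPM, log axis) of each of the 32 genes in each library, with CTRL libraries as circles and Emul libraries as triangles and grey lines between roles. Sdha and Mdh2 sit near 300 TPM and Pdk4 near 4 TPM, and most Emul points sit slightly lower on this scale, which includes the mitochondrially encoded transcripts.

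Differences between the groups were small. In gene sums, 4 of the 32 genes (12.5%) had an unadjusted p under 0.05 by limma-voom, against 15.8% of all genes tested. Idh3a, Sucla2 and Dlat were higher in Emul, where the background is 6.84%, and Pdk4 was lower, where it is 8.99%. With libraries scaled by library size alone, 6 genes passed, of which 2 were higher and 4 were lower. The shares of all genes passing under that scaling were not counted. After Benjamini-Hochberg adjustment over all genes, 0 of 32 had an adjusted p under 0.05 by limma-voom, against 0.117% of all genes. The count was also 0 by edgeR (0.209% of all genes) and by DESeq2 (2.22% of all genes), with 4 unadjusted calls each (16.1% and 15.2% of all genes). Over 1.5-fold, 0 members were called, against 0.469% of all genes.

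The median log2 fold change over the 32 genes was 0.018, against 0.0015 over all genes tested. At any p, 22 genes were higher and 10 were lower, or 68.8% higher against 50.8% of all genes. With library size alone, 11 were higher and 21 were lower. Under that scaling the median was −0.012 over the 32 genes and −0.029 over all genes tested. The share of all genes that were higher was not counted there. The absolute log2 fold change was under 0.1 for 31 genes, and Pdk4 was the exception. Standard errors (SE) ranged from 0.027 to 0.076 on the log2 scale, with a median of 0.035. The intervals of 2 SE on either side reached −0.41 (Pdk4) and 0.22 (Mpc1) at the farthest, and reached a 1.5-fold difference for 0 of 32 genes. Across all 32 genes, the highest library was most often Emul 5 (10 genes) or Emul 2 (9 genes), and the lowest was most often CTRL 3 or Emul 3 (10 genes each).

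**Figure D2:**
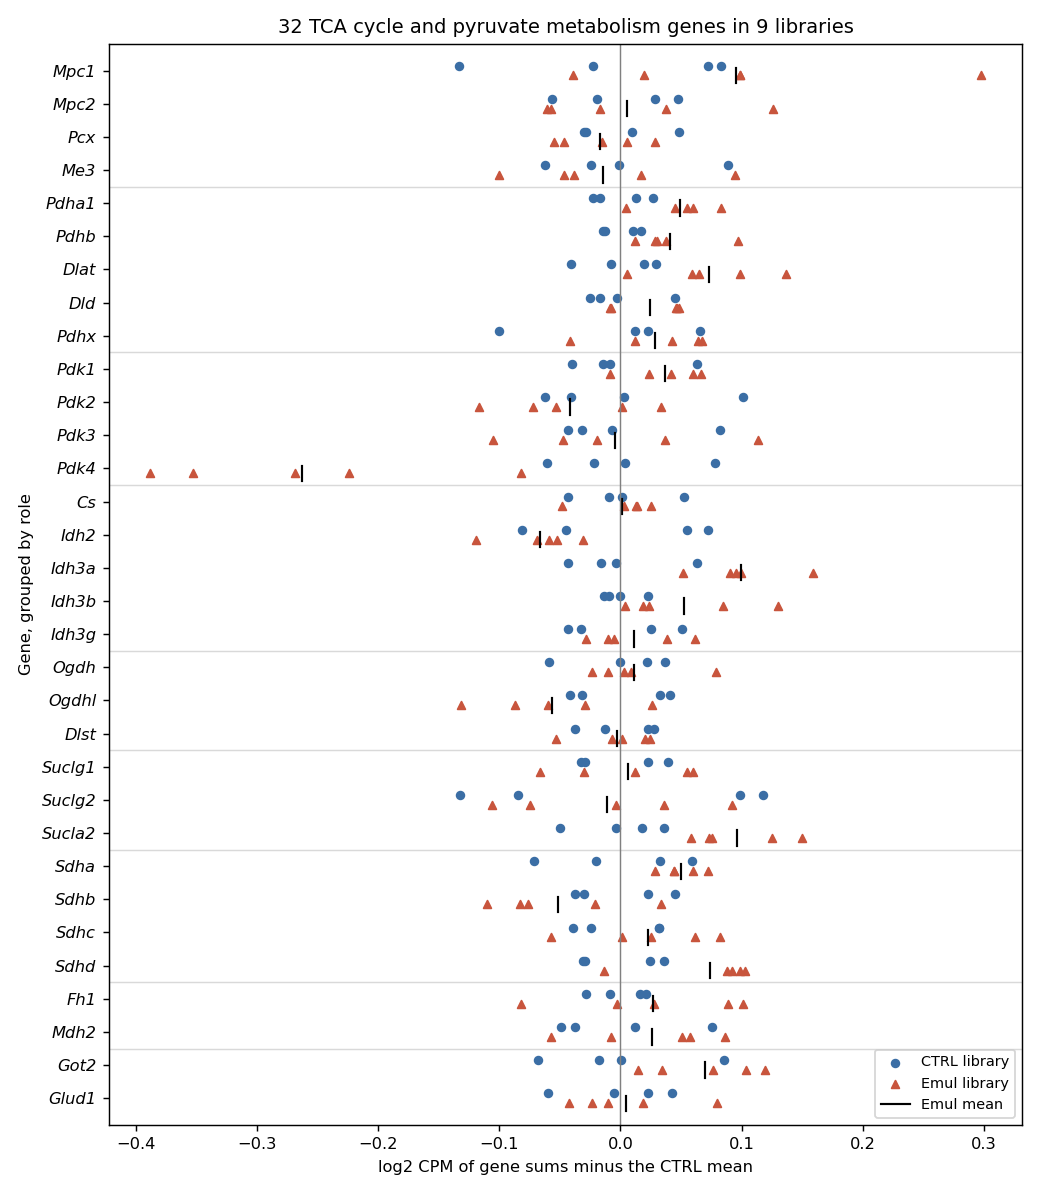
Log2 CPM of gene sums in each library minus the CTRL mean of the gene, for the 32 genes grouped by role, with CTRL libraries as circles, Emul libraries as triangles and the Emul mean as a black bar. The 5 Pdk4 triangles lie to the left of all CTRL circles and the 5 Sucla2 triangles to the right, whereas for the other 30 genes the groups overlap.

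The first step is the entry of pyruvate. Mpc1 and Mpc2 encode the 2 subunits of the mitochondrial pyruvate carrier, Pcx encodes pyruvate carboxylase, and Me3 encodes a mitochondrial malic enzyme that makes pyruvate from malate. In gene sums, 0 of these 4 genes passed. Mpc1 (chr17:8282904-8297661, mm10) differed most, with log2 CPM of 6.27, 6.26, 6.05 and 6.16 in CTRL 1 to 4 and 6.28, 6.48, 6.28, 6.20 and 6.15 in Emul 1 to 5. Emul 2 was the highest and CTRL 3 the lowest, and the other libraries overlapped (log2 fold change 0.09, SE 0.065, unadjusted p = 0.181). Its main coding transcript Mpc1-208 held 80.2% ± 1.5 (n = 4) of the gene's counts in CTRL and 85.3% ± 1.6 (n = 5) in Emul. Mpc1-208 was higher in Emul (log2 fold change 0.19, SE 0.079, adjusted p = 0.447 by limma-voom), and Mpc1-205 (−0.31) and the retained-intron transcript Mpc1-204 (−0.40) were lower, each at an unadjusted p under 0.05. Log2 fold changes of gene sums were 0.00 for Mpc2, −0.02 for Pcx and −0.02 for Me3.

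The pyruvate dehydrogenase complex joins E1 (Pdha1 and Pdhb), which decarboxylates pyruvate, E2 (Dlat), which passes on the acetyl group, E3 (Dld), which reoxidises the lipoyl arm, and Pdhx, which tethers E3. All 5 genes had a log2 fold change above 0 in gene sums, from 0.02 (Pdhx) to 0.07 (Dlat), and 1 of 5 passed. Dlat (chr9:50634633-50659780) measured 6.85, 6.84, 6.81 and 6.78 log2 CPM in CTRL and 6.83, 6.92, 6.89, 6.88 and 6.96 in Emul. Only Emul 1 fell within the CTRL range. The log2 fold change was 0.07 (SE 0.033, unadjusted p = 0.0448, adjusted p = 0.302 by limma-voom), and the unadjusted p rose above 0.05 without CTRL 2 (0.0574), CTRL 3 (0.0820), CTRL 4 (0.136), Emul 2 (0.0832), Emul 3 (0.0567) or Emul 5 (0.0911). It was 0.206 with library size alone, 0.0976 with protein-coding transcripts, 0.0516 with no filter and 0.137 with a replicate block. Pdha1 and Pdhb stood at 0.05 and 0.04, and Dld at 0.02.

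The 4 pyruvate dehydrogenase kinases phosphorylate E1 and so restrain the complex, and Pdk4 is the isoform known to rise with fasting and fatty acid use. In TPM, Pdk2 made up 59.7% ± 1.5 (n = 4) of the family in CTRL and 59.1% ± 0.6 (n = 5) in Emul, Pdk1 20.3% and 21.1%, and Pdk3 16.3% and 16.6%. Pdk4 made up 3.65% ± 0.29 in CTRL and 3.08% ± 0.30 in Emul. In this family 1 of 4 genes passed, with Pdk1, Pdk2 and Pdk3 at log2 fold changes of 0.04, −0.04 and −0.01.

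Pdk4 (chr6:5483351-5496309, minus strand) showed the largest difference of the 32 genes in gene sums. It measured 3.02, 3.16, 3.08 and 3.06 log2 CPM in CTRL and 2.73, 2.69, 2.81, 3.0 and 2.86 in Emul, from 241 to 365 estimated counts. Every Emul library was below every CTRL library, with Emul 4 the closest to them. Groups that did not overlap were found for 2 of the 32 genes, against 6.6% of all genes. Sucla2 was higher (background 2.8%) and Pdk4 lower (background 3.8%). For Pdk4 the log2 fold change was −0.26 (SE 0.076), a fall of 16.6%, with an unadjusted p of 0.0048 and an adjusted p of 0.168 by limma-voom. All 21 alternatives (other tests, scalings, filters and transcript sets, a replicate block, and each library left out) gave an unadjusted p under 0.05 and a log2 fold change between −0.31 and −0.23, with adjusted p-values from 0.0900 to 0.347. Transcript Pdk4-201 held 99.8% of the counts. The Pdk4 to Pdk2 ratio of TPM was −4.03 ± 0.14 (log2, n = 4) in CTRL and −4.27 ± 0.15 (n = 5) in Emul, a difference that missed the threshold in a two-sided exact permutation test (p = 0.0635, adjusted 0.169 over 8 ratios).

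Promoter sequence was read for the 2 genes without overlap between the groups, Pdk4 and Sucla2. The lines give the 250 bases before the start site from RefSeq (GRCm38.p6), 5′ to 3′ on the gene's strand, Pdk4 from chr6:5496279-5496528 (minus) with its CCAAT box (ATTGG on this strand) in capitals, and Sucla2 from chr14:73552536-73552785 (plus) with a match to the NRF1 motif in capitals. This RefSeq start of Sucla2 lies near the starts of its main transcripts, which hold 68.2% and 31.3% of the counts, and inside the span of the gene in GENCODE M21, which opens with a transcript holding 0.032% of the counts. The RefSeq start of Pdk4 also lies inside the GENCODE M21 span of its gene, so the last of its printed bases fall within that span.
Pdk4: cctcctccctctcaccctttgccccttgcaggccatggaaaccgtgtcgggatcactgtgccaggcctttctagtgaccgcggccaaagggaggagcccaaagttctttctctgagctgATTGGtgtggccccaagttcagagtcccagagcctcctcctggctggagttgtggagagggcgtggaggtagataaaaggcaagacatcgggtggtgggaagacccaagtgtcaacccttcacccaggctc
Sucla2: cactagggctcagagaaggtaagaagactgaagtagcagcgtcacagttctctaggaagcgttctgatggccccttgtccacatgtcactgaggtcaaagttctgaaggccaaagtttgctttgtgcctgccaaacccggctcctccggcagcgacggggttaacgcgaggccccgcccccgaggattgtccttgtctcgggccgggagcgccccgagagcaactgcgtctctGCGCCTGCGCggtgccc
NRF1 is a known activator of nuclear genes for mitochondrial proteins, and its motif was searched on both strands. Promoters (250 bases before to 50 after the start) were found for 30 of the 32 genes, as 39 promoters in all. An NRF1 match stood in 4 of the 39 (Dld, Sdha, Sdhd and Sucla2) and in 4.6% of all 32851 promoters. CCAAT, which can overlap other motifs, stood on either strand in 23 of the 39 and in 37.4% of all promoters. The ERR motif TCAAGGTCA was found in Sdhd (0.42% of all promoters), TATAAA in Got2 (13.6%), and the FOXO motif GTAAACA in 0 of the 30 genes (3.65%). These are matches of letters only.

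Citrate synthase (Cs) opens the cycle. Isocitrate is then oxidised by the NAD-dependent Idh3 complex, whose catalytic subunit is Idh3a, or by the NADP-dependent Idh2. Idh3a (chr9:54586334-54604661) measured 7.58, 7.51, 7.47 and 7.50 log2 CPM in CTRL and 7.61, 7.62, 7.61, 7.57 and 7.68 in Emul. CTRL 1 reached above Emul 4, and the other libraries were apart. The log2 fold change was 0.10 (SE 0.031, unadjusted p = 0.0085, adjusted p = 0.181 by limma-voom), with an unadjusted p under 0.05 in all 21 alternatives. Transcript Idh3a-201, with 54.4% of the counts, was at 0.13 (SE 0.037, adjusted p = 0.328 by limma-voom). The other genes of this step were at 0.00 (Cs), 0.05 (Idh3b), 0.01 (Idh3g) and −0.06 (Idh2), and none of these 4 passed in gene sums.

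Within each library, the ratio of Idh2 to Idh3a in TPM is independent of depth and of the share of mitochondrially encoded transcripts. It averaged −1.29 ± 0.08 (log2, SD, n = 4) in CTRL and −1.46 ± 0.07 (n = 5) in Emul. The CTRL libraries ranged from −1.38 to −1.20 and the Emul libraries from −1.57 to −1.40, without overlap. How often ratios of other gene pairs separate the groups was not counted. The difference was −0.17 with p = 0.0079 in a two-sided exact permutation test, the smallest value that 126 splits allow, and an adjusted p of 0.0635 over the 8 ratios examined. Removing any 1 library left it between −0.20 and −0.14.

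Of the other 7 ratios, 0 passed. Sdha to Sdhb differed by 0.12 (exact permutation p = 0.0556), Suclg2 to Sucla2 by −0.19 (exact p = 0.167), Ogdhl to Ogdh and Pcx to Pdha1 by −0.06 each (exact p = 0.262), Mpc1 to Mpc2 by 0.06 (exact p = 0.50) and Pdha1 to Pdhb by 0.02 (exact p = 0.627). The count of ratios with an unadjusted p under 0.05 was 2 without CTRL 1, through Pdk4 to Pdk2, and 3 without CTRL 2, through Suclg2 to Sucla2 and Sdha to Sdhb. It was 3 with CPM in place of TPM.

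The 2-oxoglutarate dehydrogenase complex uses Ogdh, or the brain-enriched Ogdhl, as E1 and Dlst as E2. In gene sums 0 of these 3 genes passed, at 0.01 (Ogdh), −0.06 (Ogdhl) and −0.00 (Dlst). Ogdhl (chr14:32322019-32348151) measured 7.02, 7.08, 7.01 and 7.09 log2 CPM in CTRL and 7.02, 6.99, 6.92, 7.08 and 6.96 in Emul, and the groups overlapped (SE 0.036, unadjusted p = 0.142). It made up 30.6% ± 0.8 (n = 4) of the TPM of both genes in CTRL and 29.7% ± 1.3 (n = 5) in Emul.

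Succinyl-CoA ligase pairs the alpha subunit Suclg1 with Sucla2, which forms ATP, or Suclg2, which forms GTP. Sucla2 (chr14:73525319-73596142) measured 7.07, 7.05, 6.99 and 7.03 log2 CPM in CTRL and 7.11, 7.16, 7.09, 7.11 and 7.18 in Emul. All Emul libraries were above all CTRL libraries, by a margin that was small at Emul 3. The log2 fold change was 0.10 (SE 0.031, unadjusted p = 0.0090, adjusted p = 0.182 by limma-voom), or 6.83%, and the unadjusted p stayed under 0.05 in all 21 alternatives. Suclg2 supplied 9.86% ± 1.4 (n = 4) of the TPM of both beta subunits in CTRL and 8.72% ± 0.34 (n = 5) in Emul. Suclg1 and Suclg2 were each at a log2 fold change of 0.01 or less in size.

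Succinate dehydrogenase (Sdha to Sdhd) is also complex II of the respiratory chain. In gene sums 0 of 4 genes passed, at 0.05 (Sdha), −0.05 (Sdhb), 0.02 (Sdhc) and 0.07 (Sdhd). Sdhd, a membrane anchor, measured 5.89, 5.82, 5.82 and 5.87 log2 CPM in CTRL and 5.95, 5.94, 5.84, 5.94 and 5.95 in Emul. Emul 3 stood among the CTRL libraries and the other 4 above them (SE 0.035, unadjusted p = 0.0590), and without Emul 3 the unadjusted p was 0.0127 with a log2 fold change of 0.09. Sdha, the flavoprotein, measured 8.66, 8.73, 8.6 and 8.71 log2 CPM in CTRL and 8.72, 8.75, 8.70, 8.72 and 8.74 in Emul. CTRL 3 was the lowest, and the unadjusted p was 0.126.

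Fumarase (Fh1) and malate dehydrogenase (Mdh2) close the cycle, and both were at a log2 fold change of 0.03. Fh1, the larger by a small margin, measured 6.02, 6.04, 6.00 and 6.05 log2 CPM in CTRL and 6.02, 6.11, 5.94, 6.05 and 6.13 in Emul. The Emul libraries lay on both sides of CTRL. Got2, the mitochondrial aspartate aminotransferase, was at 7.78, 7.67, 7.62 and 7.69 log2 CPM in CTRL and 7.79, 7.77, 7.70, 7.72 and 7.81 in Emul (log2 fold change 0.07, SE 0.036, unadjusted p = 0.0777). Its unadjusted p was 0.0181 without CTRL 1, the highest CTRL library, and 0.0447 without Emul 3. Glud1, the mitochondrial glutamate dehydrogenase, was at 0.00.

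The authors' log2 CPM table differed most from gene sums for Ogdhl and Pcx, and to a smaller extent for Dlst. There, 7 of 32 genes (21.9%) had an unadjusted p under 0.05 by limma-trend, against 13.5% of 14592 genes, and 0 had an adjusted p under 0.05 (0.0343% of all genes). Pcx, Dlat, Idh3a, Dlst, Sucla2 and Sdha were higher (background 6.05%), and Pdk4 was lower (background 7.42%) at a log2 fold change of −0.28 (unadjusted p = 0.0077). The count fell to 3 without CTRL 3 and to 4 without Emul 5. For 30 genes, the log2 fold changes of table and gene sums were within 0.1 of each other, and Ogdhl and Pcx were the exceptions. Pcx, Dlst and Sdha were called in the table and not in gene sums. Dlst was at a log2 fold change of 0.08 in the table (unadjusted p = 0.0343) and −0.00 in gene sums.

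In the table, Ogdhl was at −4.16, 2.36, 2.22 and 1.86 log2 CPM in CTRL and 3.93, 3.60, 3.24, 1.86 and 2.73 in Emul. CTRL 1 stood far below all other libraries. The log2 fold change was 2.50 (SE 1.14, unadjusted p = 0.0503, adjusted p = 0.371 by limma), and without CTRL 1 it was 0.92 (unadjusted p = 0.0364). Table values of Pcx were 3.38, 2.29, 2.38 and 3.22 in CTRL and 3.73, 3.06, 3.31, 3.60 and 4.26 in Emul. CTRL 1 and CTRL 4 overlapped with Emul 2 and Emul 3, and Emul 5 was the highest. The log2 fold change was 0.78 (unadjusted p = 0.0154, adjusted p = 0.272 by limma), and the unadjusted p was 0.0547 without CTRL 2 and 0.0513 without CTRL 3.

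**Figure D3:**
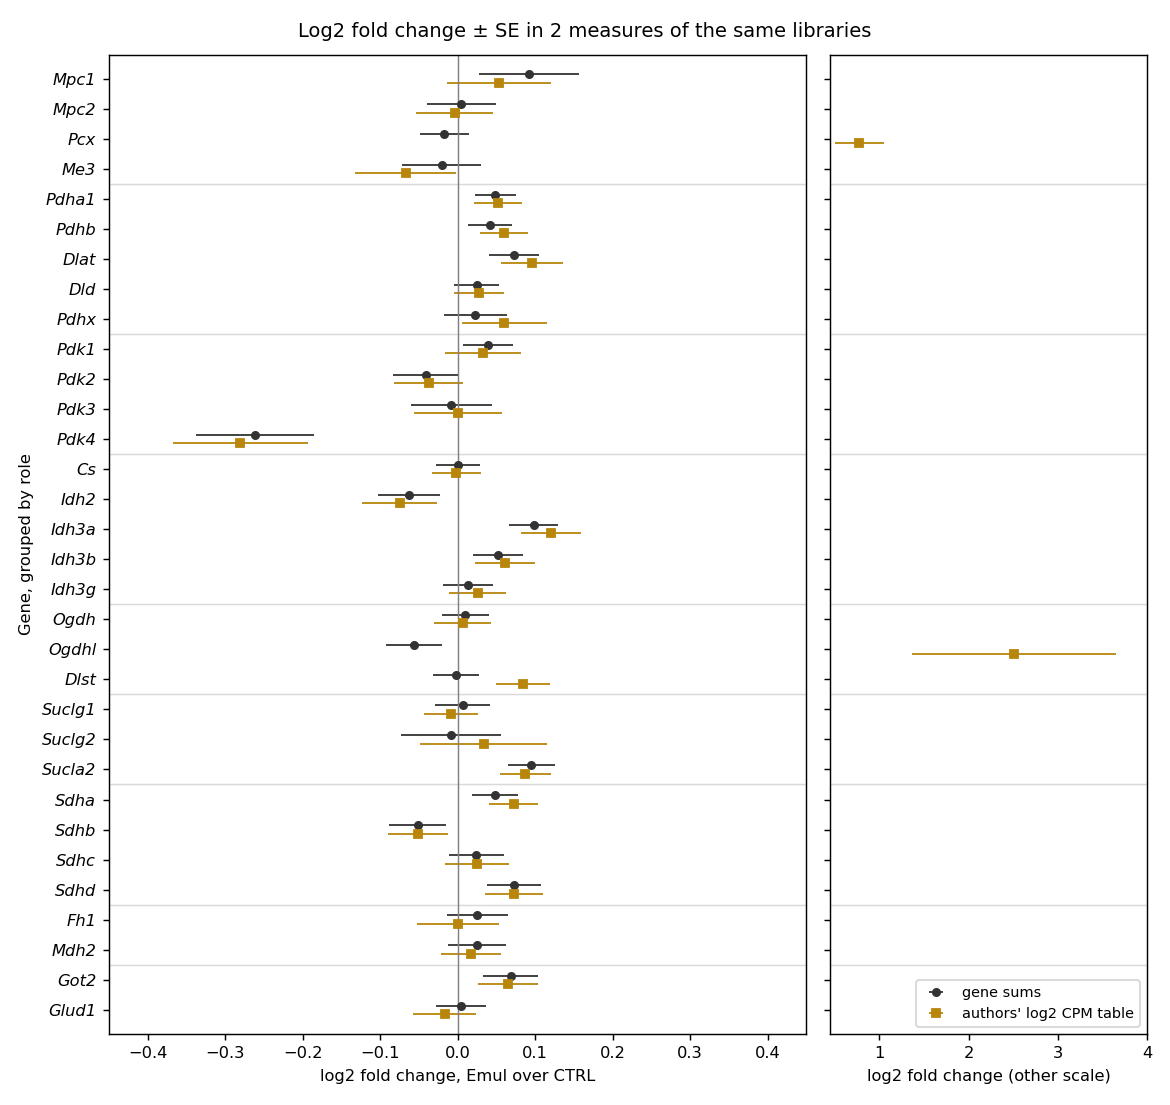
Log2 fold change of Emul over CTRL with its SE for each gene, from gene sums (circles) and from the authors' log2 CPM table (squares), with a second panel at another scale for values above 0.45. The measures lie close together except for Ogdhl (−0.06 and 2.50) and Pcx (−0.02 and 0.78).

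When the difference between table and gene sums was itself tested per library by limma, 3 of 32 genes passed, against 7.05% of 13862 genes, and all 3 were higher in the table (3.39%). These were Pcx (difference in log2 fold change 0.79, unadjusted p = 0.0438), Dlst (0.09, unadjusted p = 0.0012) and Pdhb (0.02), and 0 had an adjusted p under 0.05. Dlst had an unadjusted p under 0.05 in all 11 alternatives and Pcx in 6 of 11. The difference for Ogdhl was 2.56 (unadjusted p = 0.0963), above 0.05 in all 11 alternatives. Without Emul 4 the count was 1, and the Pcx difference then had an unadjusted p of 0.0725. It was also above 0.05 without CTRL 2 (0.119), CTRL 3 (0.115), Emul 1 (0.0822) or Emul 5 (0.0854).

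For all 32 genes, the table was matched to within 0.00021 log2 units, after a constant offset, by another kind of sum. It took TPM, scaled by transcript length to counts, over only those transcripts with lower Ensembl accession numbers. That set was known from earlier results of these data. The match thus differs from gene sums in the scaling as well as in the transcripts kept. Fh1 and Sdhc had 100% of their counts on these transcripts. Their table values still departed from gene sums by up to 0.12 log2 units in a library, after the mean offset. The lower-numbered transcripts held 4.76% of the counts of Ogdhl, 12.4% of Pcx, 54.4% of Idh3a, 68.0% of Suclg2, 79.6% of Dlst and 88.4% of Pdhb. Thus for 2 of the 32 genes the table rested on less than 50% of the counts.

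For Ogdhl, transcript Ogdhl-203 held 94.3% of the counts and is not among the lower-numbered transcripts, whereas Ogdhl-201 is. Ogdhl-201 received 0, 193, 122 and 142 estimated counts in CTRL and 555, 466, 328, 150 and 221 in Emul, which is the pattern of the table. Ogdhl-203 received 4914, 5350, 3509 and 5686 in CTRL and 4545, 4768, 4193, 5898 and 4241 in Emul. Its share of the gene was 96.7% ± 1.6 (n = 4) in CTRL and 92.2% ± 3.1 (n = 5) in Emul, with Emul 4 at 96.4%. Ogdhl-203 was lower in Emul (log2 fold change −0.12, SE 0.048, adjusted p = 0.426 by limma-voom), and Ogdhl-201 was not called (unadjusted p = 0.065).

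The transcripts share 3392 bases. They differ by 331 bases of 3′ UTR found only in Ogdhl-203, and by 57 coding bases, or 19 codons, found only in Ogdhl-201. The latter are the first 22 bases (chr14:32332284-32332305) and the last 35 bases (chr14:32332451-32332485) of the 202-base intron that Ogdhl-203 removes. They are shown because the reads that tell these transcripts apart within the coding sequence must touch them or their junction. In the lines below, from the GENCODE M21 transcripts, 5′ to 3′, capitals mark the bases found only in Ogdhl-201, which open with GTAAG and close with CAG, the letters usual at intron ends.
Ogdhl-201: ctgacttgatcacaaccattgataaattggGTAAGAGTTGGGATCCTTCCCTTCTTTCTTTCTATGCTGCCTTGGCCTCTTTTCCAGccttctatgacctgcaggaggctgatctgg
Ogdhl-203: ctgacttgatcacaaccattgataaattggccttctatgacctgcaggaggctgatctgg
Estimated counts of such overlapping transcripts are shared out by a model, and the error of that step was not measured here.

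For Pcx, transcript Pcx-204 held 87.4% of the counts and Pcx-201, which is among the lower-numbered transcripts, 12.2%. Pcx-201 received 367, 184, 137 and 368 estimated counts in CTRL and 455, 320, 316, 505 and 642 in Emul. CTRL 1 and CTRL 4 were above Emul 2 and Emul 3. Its log2 fold change was 0.71 (SE 0.308, adjusted p = 0.451 by limma-voom), while that of Pcx-204 was −0.12 (SE 0.065, unadjusted p = 0.11). The 4061 bases of Pcx-204 all lie in Pcx-201, which adds 14 bases at the 5′ end and 73 at the 3′ end, outside the coding sequence.

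**Figure D4:**
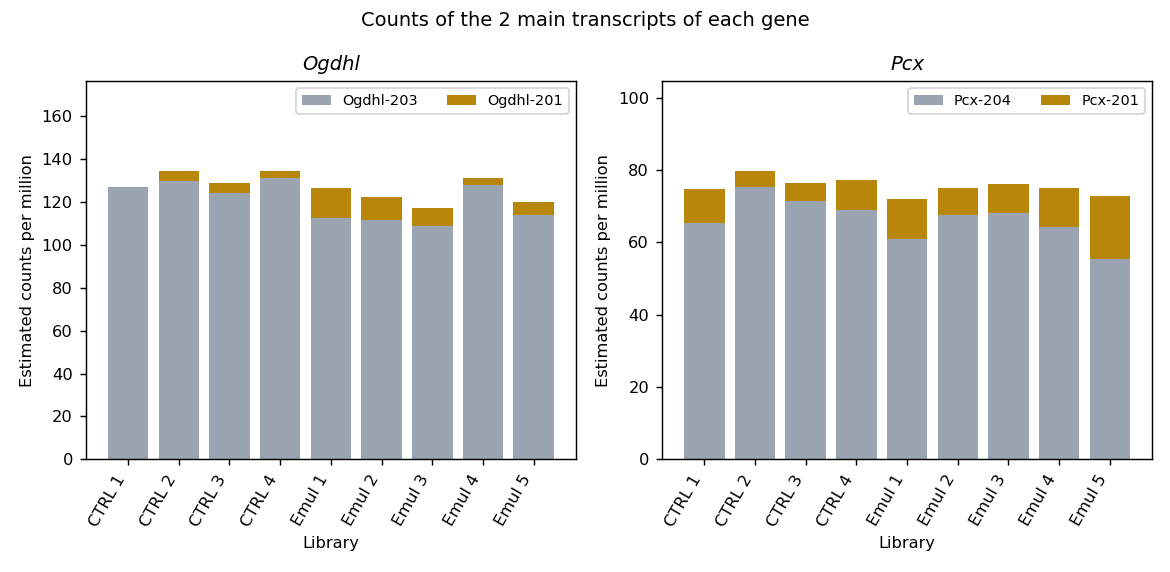
Estimated counts, as CPM, of the 2 main transcripts of Ogdhl and of Pcx in each library, stacked from 0. The sum changes little between libraries, and the upper part (Ogdhl-201 and Pcx-201) varies from library to library, with 0 counts of Ogdhl-201 in CTRL 1.

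Dlst also differed by transcript. Its coding transcript Dlst-201 held 78.0, 75.6, 75.8 and 77.9% of the gene's counts in CTRL and 82.5, 81.9, 82.5, 78.8 and 83.1% in Emul. Every Emul library was above every CTRL library in this share, by a small margin (78.8% against 78.0% at the closest). How often such shares separate the groups among all transcripts was not counted. In abundance, Dlst-201 was at 0.09 (SE 0.037, adjusted p = 0.424 by limma-voom). The retained-intron transcript Dlst-212, with 2.51% of the counts, received 102, 162, 124 and 147 estimated counts in CTRL and 65, 85, 75, 97 and 87 in Emul. The groups did not overlap in CPM, as for 2.52% of all transcripts tested in that direction, and Dlst-212 was at −0.78 on the log2 scale (SE 0.172, unadjusted p = 0.001, adjusted p = 0.244 by limma-voom).

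Over all transcripts of the 32 genes, 95 could be tested and 13 (13.7%) had an unadjusted p under 0.05, against 10.8% of 40432 transcripts. Of these, 5 were higher (4.88%) and 8 lower (5.94%), with 0 adjusted p-values under 0.05 by limma-voom (smallest 0.244) and 0 by edgeR, which gave 12 unadjusted calls. With library size alone, 1 was higher and 10 were lower, and the shares of all transcripts were not counted there. Beside those already named, the 13 were Sdhc-201 (0.16), Pdk4-201 (−0.26) and the non-coding Idh3g-209 (−0.62), Pdk1-205 (−0.58) and Idh3b-203 (−0.17). The count was 8 without CTRL 3 or CTRL 4, 6 without Emul 1 and 7 without Emul 2.

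In the rest of the pathway, a list of 38 further genes, 37 could be tested and Pck1 could not. Of these, 3 were higher and 6 lower at an unadjusted p under 0.05, or 24.3% against 15.8% of all genes (6.84% higher and 8.99% lower), and 0 had an adjusted p under 0.05 by limma-voom or edgeR, while DESeq2 gave 2 (2.22% of all genes). Mdh1, the cytosolic malate dehydrogenase of the malate-aspartate shuttle, was higher without overlap, as were 2.8% of all genes (log2 fold change 0.19, SE 0.048, adjusted p = 0.121 by limma-voom). Pdp1, a phosphatase that reactivates pyruvate dehydrogenase, was at 0.20 and the assembly factor Sdhaf3 at 0.15. The alanine aminotransferases Gpt (−0.32) and Gpt2 (−0.14) were lower, both without overlap between the groups, as were 3.8% of all genes. The lactate carrier Slc16a1 (−0.26), Aco1 (−0.12) and the cytosolic Idh1 (−0.10), together with Dhtkd1 (−0.15), were lower, with overlap.

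Of 15 glycolysis genes, 1 (6.67%) passed by limma-voom (Gapdh, log2 fold change 0.14), against 15.8% of all genes. The count was 1 by edgeR, 2 by DESeq2 and 3 in the authors' table, where the background is 13.5%. Of 12 regulators of mitochondrial and metabolic genes, 0 passed by limma-voom, edgeR or DESeq2. All log2 fold changes of these lists are from gene sums.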

How the data were processed

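The authors sequenced strand-specific mRNA libraries of P21 male MBH from 4 CTRL and 5 Emul litters. The submitters' processing notes name FastQC 0.11.9, kallisto 0.46.1, edgeR 3.40.1 and mm10. The authors deposited kallisto's estimated counts and TPM for 119414 transcripts per library, not normalized between libraries, and a log2 CPM table. How transcripts were summed for that table is not given in the sources used here. Its 1 row without a gene name was left out.

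Transcripts were matched to GENCODE M21 (97.8% matched), and unmatched transcripts, with 1.20 to 1.27% of counts, were dropped. Gene sums with CPM above 1 in at least 4 libraries were scaled by TMM and tested by limma-voom (R 4.3.3, limma 3.58.1), and rounded for edgeR 4.0.16 and DESeq2 1.42.0. Log2 CPM used a prior count of 2. The table and its difference from gene sums were tested by limma. The threshold was an unadjusted p under 0.05, and adjusted p-values (Benjamini-Hochberg) run over all features. Ratios of log2 TPM were compared by two-sided exact permutation. The fits were tested on simulated data.

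All 32 genes are named. Values per library are given for genes that passed in either measure, whose measures differed by over 0.2, or that differed most within a role. Genes of other lists are named where they passed by limma-voom in gene sums. From those lists, 1 marker gene and a list of genes induced with Pdk4 are not reported here. The members and lists were chosen with earlier results of these data known. No 2 libraries of the same group agreed within sampling noise. Pseudogene copies held at most 0.054% of the counts of Mpc1 and Got2. Depth was 28245360 to 46067534 counts. With 1 library per litter, spread between litters and spread from handling of the samples cannot be told apart. Alternatives were other tests, scalings, filters, transcript sets, a replicate block and each library left out.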

Additional observations from a re-analysis of the deposited data

Results flagged for a closer look

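Of 144 groups of 4 or 5 values examined for 1 library standing apart by Dixon's test (32 genes, 2 groups and 2 measures, and the ratios), 5 did, where chance alone gives about 7.2 (1 in 20). In the authors' log2 CPM table, Ogdhl in CTRL 1 was at −4.16, against 1.86 to 2.36 in the other CTRL libraries. In that table, Idh3a in Emul 5 was at 6.76, against 6.87 to 6.91 in the other Emul libraries, whereas in gene sums Emul 5 was the highest for Idh3a (7.68). Suclg2 in CTRL 4 was at 4.00 in the table, against 3.71 to 3.76 in the other CTRL libraries. Sdhd in Emul 3 was at 5.84 in gene sums, against 5.94 to 5.95 in the other Emul libraries, and at 5.95 in the table, against 6.05 to 6.07.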

How the results depend on the processing

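The count of genes passing in gene sums stayed between 3 and 6 under other tests, scalings, filters and left-out libraries (3 to 5 for the latter). Restricting to lower-numbered transcripts, with TPM scaled by length to counts, gave 8 and turned Pcx to 0.743, Ogdhl to 3.0 and Dlst to 0.0841. The share passing among the 14613 genes tested in that setting was not counted. With protein-coding transcripts alone, Dlst was at 0.0836. Those transcript sets leave out Ogdhl-203, Pcx-204 or non-coding Dlst transcripts. The cause of the other shifts was not tested. The median log2 fold change ranged from 0.0090 to 0.023 without single libraries and was −0.012 with library size alone, where the median of all genes was −0.029. The count in the table was 4 without the trend and 3 to 7 without single libraries, that of the difference between measures 1 to 4, that of transcripts 6 to 15, and that of ratios 1 to 3 (3 with CPM). Replicate numbers did not pair the libraries: same-numbered deviations correlated at −0.16 to 0.021, and 0 of 4 correlated best with their own number. With the replicate block, 4 genes passed in gene sums (Mpc1 gained, Dlat lost), 3 in the table and 8 transcripts, and the median was 0.014. Of 124 sign changes of single genes, 120 had no call on either side, and the largest value that changed sign was 0.057 in size. Gene Pdk4, with 241 to 365 counts, is the most limited by depth.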
